A study of Homo sapiens with 8 samples.

Results

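The nuclear genes of mitochondrial complex I and of its NDUFAF assembly factors were followed in neurons made from LUHMES cells, a human line from embryonic midbrain that stops dividing and forms neurons when its immortalising gene is switched off. Members were the protein-coding genes with symbols beginning NDUFA, NDUFB, NDUFC, NDUFS or NDUFV, NDUFAF included, and pseudogenes and antisense genes were left out. This gave 48 genes of 62826 in the gene tables, of which 19848 were protein-coding, and 67 further features of the NDUF family were not protein-coding. The 48 comprised 37 subunits, 8 NDUFAF factors, NDUFA4 and its paralog NDUFA4L2, and the readthrough gene NDUFC2-KCTD14.

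The comparison was of 2 groups of 4 libraries, each library from 1 of the differentiation batches numbered 2 to 5. The treated neurons received antimycin A at 25 µM, which blocks respiratory complex III, together with oligomycin at 10 µM, which blocks the ATP synthase, for 8 h. The vehicle neurons received DMSO. Both groups had differentiated for 6 days, and the labels record no genetic change beside those of the line. All libraries come from 1 line of 1 origin.

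Complex I oxidises NADH, passes the electrons along iron-sulfur clusters to coenzyme Q and pumps protons across the inner mitochondrial membrane. Its N module holds the NADH site, its Q module the quinone site, and its proximal and distal membrane arms the proton pumps. A small set of core subunits carries the chemistry and the pumps, and the mitochondrial genome encodes those of the membrane arm. The other subunits are accessory, and assembly factors join the modules and leave before the enzyme is complete. Midbrain dopaminergic neurons are known for their sensitivity to complex I inhibitors.

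The libraries held 93717712 to 110020746 estimated reads, and all 48 genes passed the filter on low counts. Vehicle replicate 2 stood apart from every other library: mtDNA genes made up 30.2% of its TPM (a level per transcript length, scaled to the same total in every library), against 10.3% to 13.8% in the 7 others. In that library 33 of the 48 genes lay below the mean of the other vehicle libraries in CPM (reads after scaling every library to one size by the TMM factors of edgeR), with a median difference of -0.18 and a range of -1.08 to 0.61 on the log2 scale. Over all genes tested that median was 0.01. The median coefficient of variation of the 48 genes was 7.06% in the 4 treated libraries, against 9.50% in the 4 vehicle libraries and 3.17% in the vehicle libraries without replicate 2. Each main result is therefore given with and without it. Neuronal markers were abundant, with TUBB3 at 1622 to 1910 TPM in treated and 1643 to 2860 TPM in vehicle neurons. The dopamine transporter gene SLC6A3 stood at 306.8 to 341.1 TPM in treated and 296.2 to 413.7 TPM in vehicle neurons, and TH, for the enzyme that makes the dopamine precursor, at 21.3 to 28.2 TPM in treated and 7.32 to 13.0 TPM in vehicle neurons. TH was called higher (1.04), and the transcription factor gene NR4A2 was not, at 5.97 to 7.54 TPM in treated and 6.12 to 9.42 TPM in vehicle neurons. The dopaminergic markers SLC18A2, DDC, PITX3 and LMX1B stayed below 1 TPM in all 8 libraries, so the dopaminergic markers were expressed only in part. At that low level DDC was called lower (-1.05, and -1.04 without vehicle replicate 2). The 6 neuronal markers summed to 3373 to 3490 TPM in treated and 3704 to 5026 TPM in vehicle neurons, with 2 of them called higher and 4 lower. The higher ones were RBFOX3 (0.98) and SNAP25 (0.49). The 4 markers of cycling cells summed to 100.6 to 115.9 TPM in treated and 123.1 to 208.6 TPM in vehicle neurons, and all 4 were lower. In vehicle neurons MKI67 stood at 10.1 to 15.2 TPM, CDK1 at 13.7 to 31.4, TOP2A at 39.0 to 56.7 and PCNA at 56.0 to 105.7. Transcripts of cycling cells were thus present in these cultures. Of 12 glial and microglial markers only OLIG2 exceeded 2 TPM, at 15.8 to 19.2 TPM in treated and 22.2 to 36.8 TPM in vehicle neurons.

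Most complex I genes had small fold changes, and those that passed the test went both ways. By the edgeR quasi-likelihood test with Benjamini-Hochberg adjustment over 19785 genes, 8 of the 48 genes were higher in treated neurons and 9 were lower, at adjusted p under 0.05. That is 16.7% higher and 18.8% lower, against 27.7% higher and 30.2% lower among all genes tested and 30.1% and 29.2% among protein-coding genes. The median log2 fold change was 0.01, against -0.02 over all genes, and the absolute log2 fold change was under 0.5 for 43 of the 48 (89.6%), against 58.1% of all genes. The calls were on the whole those of small changes, and only NDUFC2-KCTD14 passed with a log2 fold change of at least 1. Without vehicle replicate 2 the counts were 10 higher and 14 lower, which is 20.8% and 29.2%, against 30.6% and 32.4% of all genes. With library totals in place of TMM factors the median of all genes moved to -0.12, and 5 of the 48 were higher and 12 lower, against 21.6% and 35.5% of all genes. In bulk RNA fewer cells of a type and less RNA per cell cannot be told apart, and the part of the lower marker sums in these calls was not tested.

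In CPM the 4 treated libraries lay above all 4 vehicle libraries for 8 of the 48 genes, against 25.3% of all genes, and below them for 8, against 28.2%. In the authors' deposited table of coding genes, 47 of the 48 were listed, 8 of them higher and 9 lower at a false discovery rate under 0.05, against 28.1% and 29.6% of the genes in that table. Of these, 7 were called higher and 8 lower by edgeR as well, and none was called in opposite directions. NDUFAF1 and NDUFAF5 were called by edgeR only.

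**Figure D1:**
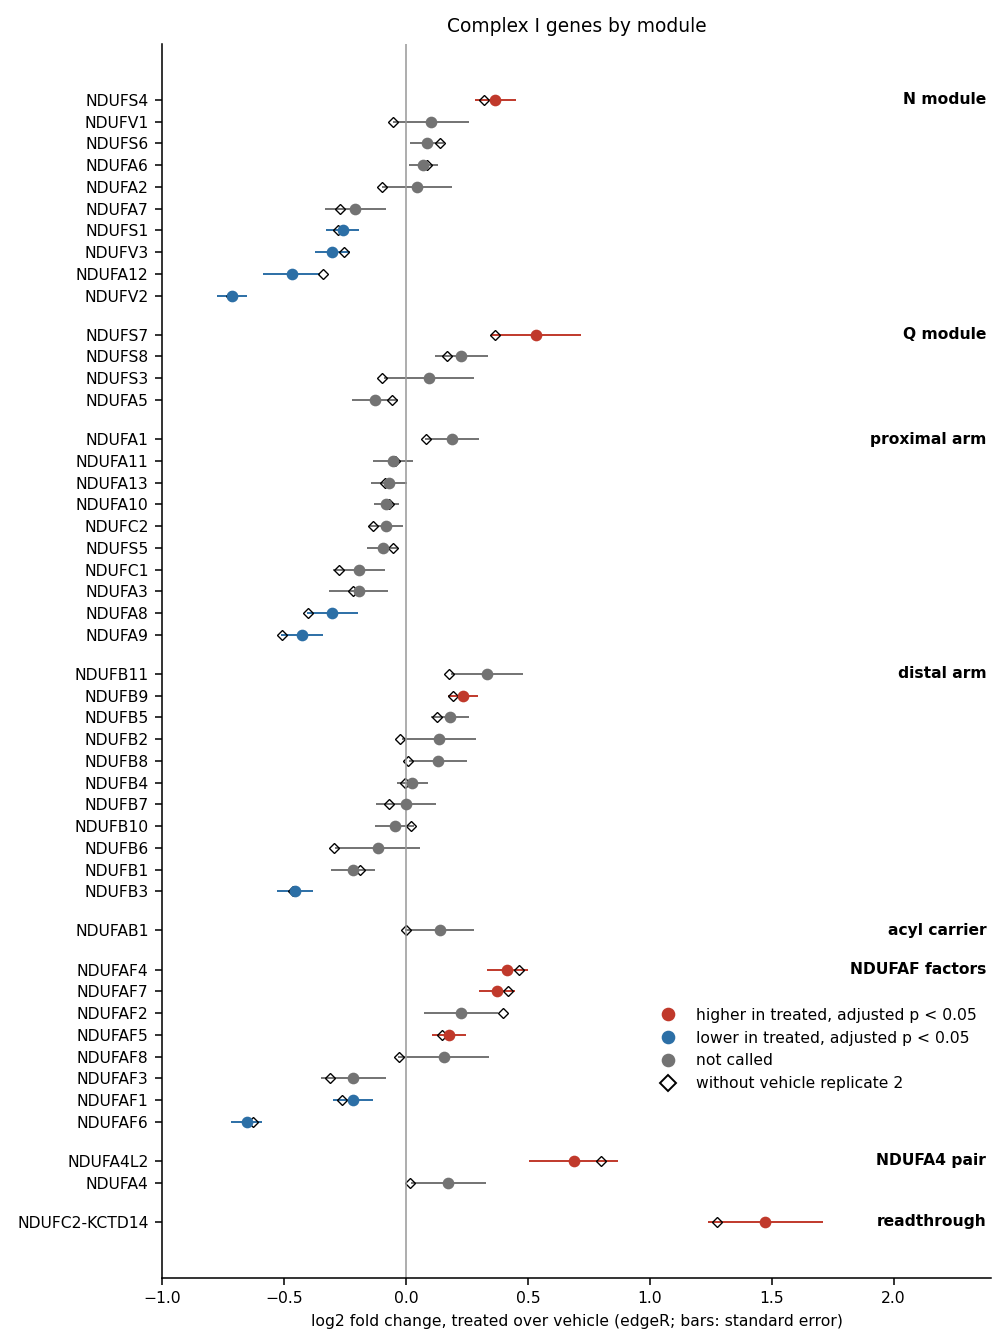
Log2 fold change of 47 of the 48 genes, treated over vehicle, by module; circles with bars are the edgeR estimate and its standard error over 4 libraries per group, and open diamonds the estimate without vehicle replicate 2. Most circles lie between -0.5 and 0.5, and NDUFV2 (-0.71) and NDUFC2-KCTD14 (1.47) stand at the ends.

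The N module held 4 of the 9 genes that were lower, and 1 that was higher, among its 10 subunits, against 30.2% lower and 27.7% higher among all genes. NDUFV2, a core subunit with an iron-sulfur cluster near the flavin site, had the largest fall of the 48 genes. It stood at 47.8, 44.2, 47.8 and 50.9 CPM in treated neurons, against 77.6, 75.7, 81.4 and 77.9 CPM in vehicle neurons. The groups did not overlap, and vehicle replicate 2 lay among its own group. The log2 fold change was -0.71 ± 0.0622 (SE, n = 4 each, edgeR quasi-likelihood test, adjusted p = 6.69e-06). It was -0.72 without vehicle replicate 2. Transcripts from the opposite strand of this locus (NDUFV2-AS1) and from its pseudogene (NDUFV2P1) also fell, by 0.92 and 0.69 on the log2 scale, and whether the counting used strand is unknown here, so shared reads were not told apart.

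NDUFS1, the largest core subunit and carrier of several iron-sulfur clusters, stood at 130.5, 132.6, 135.7 and 149.2 CPM in treated neurons, against 158.3, 156.6, 165.2 and 176.1 CPM in vehicle neurons. Its groups were apart by a narrow margin, and it fell by 0.26 on the log2 scale (SE 0.0664, edgeR quasi-likelihood test, adjusted p = 0.00685), and by 0.28 without vehicle replicate 2. NDUFV1, the core subunit that binds NADH and the flavin, was not called: it held 91.9 to 116.5 CPM in treated neurons, against 66.6 CPM in vehicle replicate 2 and 110.8 to 112.4 CPM in the other vehicle neurons. Its log2 fold change was 0.10 ± 0.156 (SE), and -0.05 without vehicle replicate 2. Of the 3 core subunits of the N module, 2 were thus lower and none was higher.

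Among the accessory subunits of the N module, NDUFA12, which takes its place late in assembly where the factor NDUFAF2 had been bound, stood at 26.7, 27.4, 29.1 and 31.3 CPM in treated neurons, against 50.2, 35.1, 36.6 and 36.9 CPM in vehicle neurons. Vehicle replicate 2 held the highest of these values, and the log2 fold change of -0.47 ± 0.115 (SE, edgeR quasi-likelihood test, adjusted p = 0.00553) was -0.34 without it (adjusted p = 0.00129). NDUFV3, a small subunit bound to the flavoprotein part, had 28.0 to 30.9 CPM in treated neurons, against 33.8 to 39.2 CPM in vehicle neurons, and its log2 fold change was -0.30, or -0.25 with vehicle replicate 2 left out. NDUFS4, whose loss in mice gives a Leigh-like encephalopathy, went the other way. It stood at 37.2, 37, 40.1 and 45.7 CPM in treated neurons, against 28.2, 32.5, 32.1 and 31.4 CPM in vehicle neurons, with no overlap. The log2 fold change was 0.37 ± 0.0848 (SE, edgeR quasi-likelihood test, adjusted p = 0.00399) and 0.32 without vehicle replicate 2. NDUFA2, NDUFA6, NDUFA7 and NDUFS6 were not called, at -0.21 to 0.09, and NDUFS6 passed only without vehicle replicate 2 (0.14, adjusted p = 0.038).

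NDUFA12 and NDUFAF4 are shown by the bases before their transcription start, because their promoter windows hold a searched motif outside any annotated exon and one gene was lower and the other higher. The stretches come from RefSeq on GRCh38.p14, minus strand, and the capitals mark the motif. That of NDUFA12 covers bases 250 to 74 before the start, and that of NDUFAF4 bases 250 to 1. For NDUFA12 (chr12:95003771-95003947) it is the core CGCANGCG of NRF1, a factor known to bind promoters of many respiratory genes. For NDUFAF4 (chr6:96897892-96898141) it is the ETS core CCGGAAG.
NDUFA12: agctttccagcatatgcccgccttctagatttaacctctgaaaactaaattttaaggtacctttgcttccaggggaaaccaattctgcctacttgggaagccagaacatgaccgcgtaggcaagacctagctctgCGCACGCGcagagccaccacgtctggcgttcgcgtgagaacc
NDUFAF4: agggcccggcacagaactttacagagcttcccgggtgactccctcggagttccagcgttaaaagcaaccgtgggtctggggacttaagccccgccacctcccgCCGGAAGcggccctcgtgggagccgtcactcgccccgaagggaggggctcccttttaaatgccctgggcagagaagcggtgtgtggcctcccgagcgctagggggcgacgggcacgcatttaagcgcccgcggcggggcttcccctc
The NRF1 core, read on both strands, begins 115 bases before the start of NDUFA12, and the ETS core 147 bases before that of NDUFAF4. Over whole windows of 250 bases before to 50 after each start, 40 of the 48 genes had 52 windows. The NRF1 core lay in 14 of them (26.9%), against 10.0% of all 35116 windows and 12.9% of those of protein-coding genes. The ETS core lay in 8 (15.4%), against 10.3% of all windows and 12.9% of those of protein-coding genes. The composite element TGATGNAA, bound by ATF4 with CHOP in the stress response, lay in 2 (3.85%), those of NDUFA5 and NDUFS6, against 3.62% of all windows and 2.70% of coding ones. Of the 14 called genes with a window, 5 held the NRF1 core, 2 the ETS core and none the composite element. Among all 40 genes with a window these numbers were 13, 7 and 2. Matches were allowed to overlap, and a match of letters is not a binding site.

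**Figure D2:**
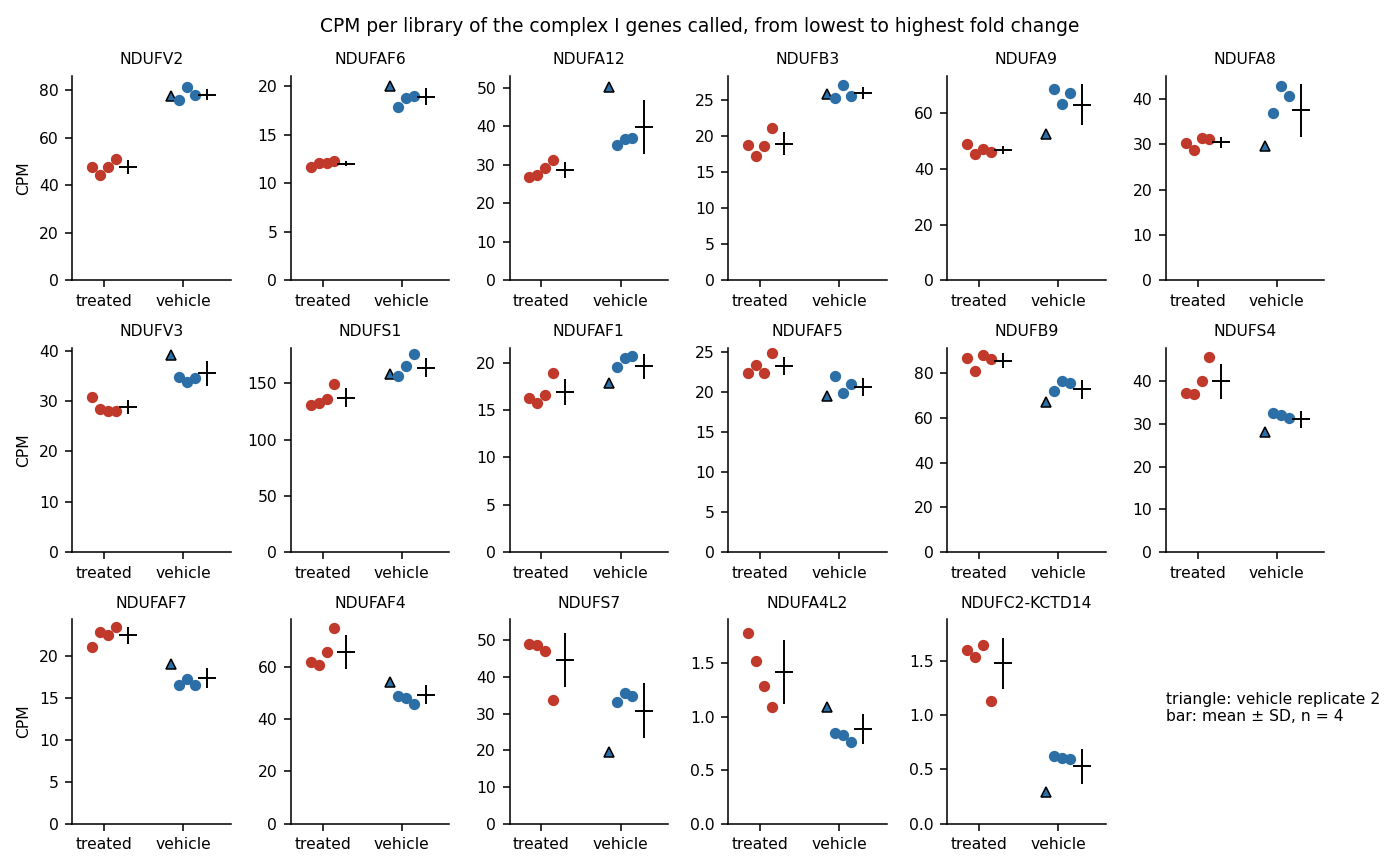
CPM in each library of the 17 genes called, ordered by fold change, treated left of vehicle; triangles are vehicle replicate 2 and bars the mean ± SD of 4 libraries. NDUFV2 separates without overlap (44.2 to 50.9 against 75.7 to 81.4 CPM), while the groups of NDUFS7, NDUFA8, NDUFAF1 and NDUFA4L2 overlap.

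In the Q module 1 of 5 subunits was higher and none lower, against 27.7% and 30.2% of all genes. NDUFS7, which carries the last iron-sulfur cluster before coenzyme Q, stood at 48.9, 48.7, 47.0 and 33.7 CPM in treated neurons, against 19.6, 33.1, 35.7 and 34.8 CPM in vehicle neurons. One treated library lay among the vehicle libraries, and vehicle replicate 2 was the lowest of all. The log2 fold change was 0.53 ± 0.186 (SE, edgeR quasi-likelihood test, adjusted p = 0.031), and 0.37 without vehicle replicate 2 (adjusted p = 0.0229). The call was lost with library totals only (0.42, adjusted p = 0.0992), with gene length modelled (0.33, adjusted p = 0.131), and without treated replicate 2, 3 or 4 or vehicle replicate 3 (adjusted p of 0.0503 to 0.0768).

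No other subunit of the Q module was called. NDUFS3, the scaffold on which the module begins, held 54.1 to 57.6 CPM in treated neurons, against 30.0 CPM in vehicle replicate 2 and 58.2 to 60.7 CPM in the others. Its log2 fold change of 0.09 turned to -0.10 without that library. NDUFS8, another iron-sulfur subunit, stood at 0.23 (adjusted p = 0.0941) and passed without treated replicate 5 (0.32, adjusted p = 0.00686), with gene length modelled (0.29, adjusted p = 0.013) and with DESeq2 (adjusted p = 0.0495). The accessory subunit NDUFA5 stood at -0.13 (adjusted p = 0.275) and passed with gene length modelled (-0.16, adjusted p = 0.0459).

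The proximal membrane arm had 2 of its 10 subunits lower and none higher, against 30.2% and 27.7% of all genes. Of its fold changes, 9 of 10 were below 0, as were 10128 of the 19785 over all genes. NDUFA9, which holds a bound nucleotide where the arm meets the Q module, stood at 48.7, 45.4, 47.1 and 45.9 CPM in treated neurons, against 52.4, 68.6, 63.3 and 67.1 CPM in vehicle neurons. Vehicle replicate 2 was the nearest to the treated libraries, and the log2 fold change of -0.43 ± 0.0858 (SE, edgeR quasi-likelihood test, adjusted p = 0.00174) was -0.51 without it. With gene length modelled it was -0.22 and no longer called (adjusted p = 0.194). Another annotated gene, ENSG00000255639, overlaps NDUFA9 and was higher in treated neurons by 0.96 on the log2 scale, so reads of this locus are divided with some uncertainty.

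NDUFA8, a subunit of the intermembrane face held by disulfides, stood at 30.3, 28.9, 31.4 and 31.2 CPM in treated neurons, against 29.6, 36.9, 42.9 and 40.7 CPM in vehicle neurons. Vehicle replicate 2 lay within the treated range. The log2 fold change was -0.30 ± 0.106 (SE, edgeR quasi-likelihood test, adjusted p = 0.0317) and -0.40 without that library (adjusted p = 0.000424), and the call was lost with gene length modelled and on leaving out any 1 of the 7 other libraries (adjusted p of 0.0507 to 0.092). NDUFC1 and NDUFC2 were called lower only without vehicle replicate 2, at -0.27 and -0.14, and NDUFA1 was the 1 subunit of this arm above 0 (0.19, adjusted p = 0.167).

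Of the 11 distal arm subunits 1 was lower and 1 higher, against 30.2% and 27.7% of all genes. NDUFB3, a small membrane subunit, stood at 18.7, 17.2, 18.6 and 21.1 CPM in treated neurons, against 25.8, 25.3, 27.1 and 25.6 CPM in vehicle neurons. The groups were well apart, with vehicle replicate 2 inside its own group, and the log2 fold change was -0.46 ± 0.0747 (SE, edgeR quasi-likelihood test, adjusted p = 0.000463) both with and without it. NDUFB9, which binds an acyl carrier protein through its LYR motif, stood at 87.0, 80.9, 88.2 and 86.4 CPM in treated neurons, against 67.3, 71.9, 76.4 and 75.8 CPM in vehicle neurons. It was higher by 0.23 ± 0.0626 (SE, adjusted p = 0.00896) and by 0.19 without vehicle replicate 2, and was not called with library totals only (0.13, adjusted p = 0.165). NDUFB11 and NDUFB5 did not overlap between the groups and yet did not pass, at 0.33 and 0.18 (adjusted p = 0.0789 and adjusted p = 0.0689), while DESeq2 called both (adjusted p = 0.0378 and adjusted p = 0.0499). Without vehicle replicate 2 NDUFB11 was called higher at 0.18 (adjusted p = 0.0218), and NDUFB5 stood at 0.13. NDUFB6 passed only without vehicle replicate 2, at -0.30. NDUFAB1, the acyl carrier protein that serves both complex I and mitochondrial fatty acid synthesis, stood at 0.14 ± 0.142 (SE) and at -0.002 without vehicle replicate 2.

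The NDUFAF assembly factors were divided, with 3 of 8 higher, 2 lower and 3 not called, against 27.7% higher and 30.2% lower of all genes. NDUFAF4, which works with NDUFAF3 on the Q module, stood at 62.0, 60.7, 65.8 and 74.9 CPM in treated neurons, against 54.4, 49.0, 48.1 and 46.0 CPM in vehicle neurons. All treated libraries were higher, and the log2 fold change was 0.41 ± 0.0835 (SE, edgeR quasi-likelihood test, adjusted p = 0.00174) and 0.46 without vehicle replicate 2. Its partner NDUFAF3 held 8.64 to 12.2 CPM in treated neurons, against 10.0 to 14.0 CPM in vehicle neurons, and was not called (-0.22, adjusted p = 0.19), but passed as lower without vehicle replicate 2 (-0.31, adjusted p = 0.0331). These partners thus had fold changes of opposite sign; the difference between them was not tested.

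NDUFAF7, a methyltransferase of complex I assembly, stood at 21.1, 22.9, 22.5 and 23.5 CPM in treated neurons, against 19.1, 16.6, 17.3 and 16.5 CPM in vehicle neurons. It was higher without overlap, by 0.37 ± 0.0727 (SE, edgeR quasi-likelihood test, adjusted p = 0.00139), and by 0.42 without vehicle replicate 2. NDUFAF5, which hydroxylates NDUFS7, had 22.4 to 24.9 CPM in treated neurons, against 19.6 to 22.0 CPM in vehicle neurons. Its log2 fold change of 0.18 ± 0.0691 (SE) just passed at an adjusted p of 0.0497, and 13 of 16 alternative settings lost the call, among them the fits without vehicle replicate 2 (0.15, adjusted p = 0.0617) and on protein-coding genes only. NDUFAF8, which stabilises NDUFAF5, was not called (0.15, adjusted p = 0.503).

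NDUFAF6, a factor of early assembly, had the second largest fall among the 48 genes. It stood at 11.7, 12.1, 12.1 and 12.3 CPM in treated neurons, against 20.1, 17.9, 18.8 and 19.0 CPM in vehicle neurons. No library overlapped, and the log2 fold change was -0.65 ± 0.0651 (SE, edgeR quasi-likelihood test, adjusted p = 1.67e-05). It was -0.63 without vehicle replicate 2 and -0.39 in the authors' deposited table. Its locus overlaps TP53INP1, which also fell, by 0.57 on the log2 scale, and reads shared by both were not told apart. NDUFAF1, a founder of the assembly complex for the proximal arm, had 15.8 to 18.9 CPM in treated neurons, against 17.8 to 20.7 CPM in vehicle neurons. Its call as lower (-0.22 ± 0.0816, adjusted p = 0.0412) was lost under 9 of 16 alternative settings, and it was -0.26 without vehicle replicate 2. NDUFAF2, the factor that NDUFA12 replaces, stood at 0.22 (adjusted p = 0.227), with vehicle replicate 2 at 12.6 CPM above the other vehicle libraries (7.99 to 8.47 CPM). Without that library NDUFAF2 was higher in treated neurons by 0.40 (adjusted p = 0.00448), and so it was with gene length modelled (0.40, adjusted p = 0.0124). NDUFA12 was lower by 0.34 without that library.

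NDUFA4 and NDUFA4L2 are named for complex I but NDUFA4 is known as a subunit of complex IV, and NDUFA4L2 as a gene switched on in hypoxia. NDUFA4 was abundant and not called: it held 101.9 to 122.6 CPM in treated neurons, against 64.0 CPM in vehicle replicate 2 and 106.7 to 110.4 CPM in the other vehicle neurons. NDUFA4L2 was scarce, with 85 to 176 reads per library, and stood at 1.79, 1.52, 1.29 and 1.09 CPM in treated neurons, against 1.09, 0.850, 0.826 and 0.769 CPM in vehicle neurons. The lowest treated library met vehicle replicate 2, and the log2 fold change was 0.69 ± 0.183 (SE, edgeR quasi-likelihood test, adjusted p = 0.00841) and 0.80 without that library. NDUFA4L2 lies across from the abundant gene SHMT2, which was higher in treated neurons by 2.06 on the log2 scale, and reads from the 2 strands could not be told apart without the strand use of the counting.

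NDUFC2-KCTD14, an annotated joining of NDUFC2 to its neighbour KCTD14, had the largest rise. It stood at 1.595, 1.53, 1.64 and 1.13 CPM in treated neurons, against 0.287, 0.624, 0.602 and 0.596 CPM in vehicle neurons, from 26.2 to 172.8 estimated reads. The log2 fold change was 1.47 ± 0.235 (SE, edgeR quasi-likelihood test, adjusted p = 0.000387) and 1.28 without vehicle replicate 2. KCTD14 itself was higher by 1.58 while NDUFC2 was not called (-0.08, adjusted p = 0.332), and the readthrough shares its exons with both, so its estimate depends on how reads were divided. Without this gene and NDUFA4L2, 6 genes were higher and 9 lower.

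Levels per length differed far more between subunits than between groups. NDUFS5, a disulfide-held subunit of the proximal arm, was the highest of the 37 subunits in all 8 libraries. It stood at 436.0, 442.7, 447.4 and 462.7 TPM in treated neurons, against 407.2, 492.2, 517.5 and 506.5 TPM in vehicle neurons. NDUFA13, also known as the cell death regulator GRIM-19, was next in every library, at 361.3 to 403.9 TPM in treated and 332.4 to 461.1 TPM in vehicle neurons. NDUFV3 was the lowest in every library, at 15.8 to 18.3 TPM in treated and 20.2 to 23.0 TPM in vehicle neurons. Between these ends most neighbours in the order did not separate: NDUFB11 for example took ranks 3 to 14 over the 8 libraries, and NDUFA12 ranks 7 to 25. The highest and lowest group means of a subunit differed 27.0-fold in treated and 22.2-fold in vehicle neurons, and 29 of 37 subunits exceeded 100 TPM in each group. The order by group mean was close in both groups (Spearman's rho 0.94 across 37 genes of the same 8 libraries, a description). The 8 NDUFAF factors lay lower, with a median of 33.0 TPM in treated and 33.7 TPM in vehicle neurons, against 148.4 and 170.2 TPM for the subunits.

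**Figure D3:**
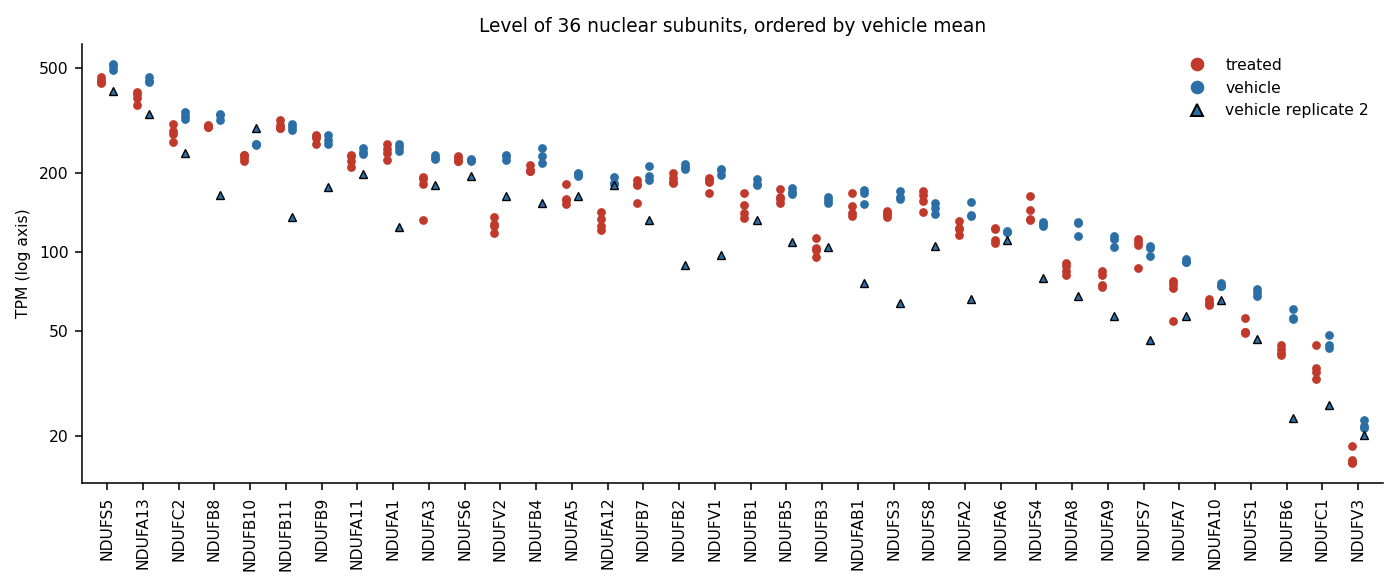
TPM (log axis) of 36 of the 37 nuclear subunits in each library, ordered by the vehicle mean; red points are treated, blue points vehicle, and triangles vehicle replicate 2. NDUFS5 leads at 407.2 to 517.5 TPM and NDUFV3 closes at 15.8 to 23.0 TPM, and the triangles lie below the other vehicle points for most genes.

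The summed level of the 37 subunits was 6209, 6056, 6213 and 6102 TPM in treated neurons, against 4768, 6893, 6993 and 7206 TPM in vehicle neurons. Because mtDNA transcripts took up much of vehicle replicate 2, the sums were also computed with the nuclear genes alone scaled to the TPM total, a scale added after the values were seen. They were then 7196, 7025, 7075 and 6803 in treated neurons, against 6831, 7926, 8015 and 8036 in vehicle neurons. Vehicle replicate 2 lay within the treated range, and the 3 other vehicle libraries lay above all treated ones. The treated mean was 0.91 of the vehicle mean, and 0.88 without vehicle replicate 2. For the N module all 4 vehicle libraries, replicate 2 included, lay above the treated ones on this scale, at 1331 to 1378 in treated neurons, against 1454 to 1610 in vehicle neurons. So they did for the proximal arm, at 2179 to 2387 in treated neurons, against 2429 to 2709 in vehicle neurons. On plain TPM vehicle replicate 2 lay below all treated libraries in both, with the N module at 1159 to 1210 in treated neurons, against 1015 in vehicle replicate 2 and 1399 to 1444 in the other vehicle neurons. The proximal arm was at 1955 to 2066 TPM in treated neurons, against 1696 TPM in vehicle replicate 2 and 2302 to 2405 TPM in the other vehicle neurons. The sum of the 8 NDUFAF factors overlapped, at 331.5 to 363.1 in treated and 306.0 to 360.6 in vehicle neurons. These sums were not tested, since the genes were chosen as a family. Neither scale uses the TMM factors. Those were 0.9599 to 0.9725 in treated libraries, 0.9686 in vehicle replicate 2 and 1.045 to 1.073 in the 3 other vehicle libraries. A higher factor lowers a library's values, so TMM scaling would bring the treated libraries nearer to those 3. Sums on that scale were not computed. The neuronal markers summed lower in treated neurons as well, in all 4 libraries, though RBFOX3 and SNAP25 among them were higher. The part of these marker changes in the sums of complex I was not tested.

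**Figure D4:**
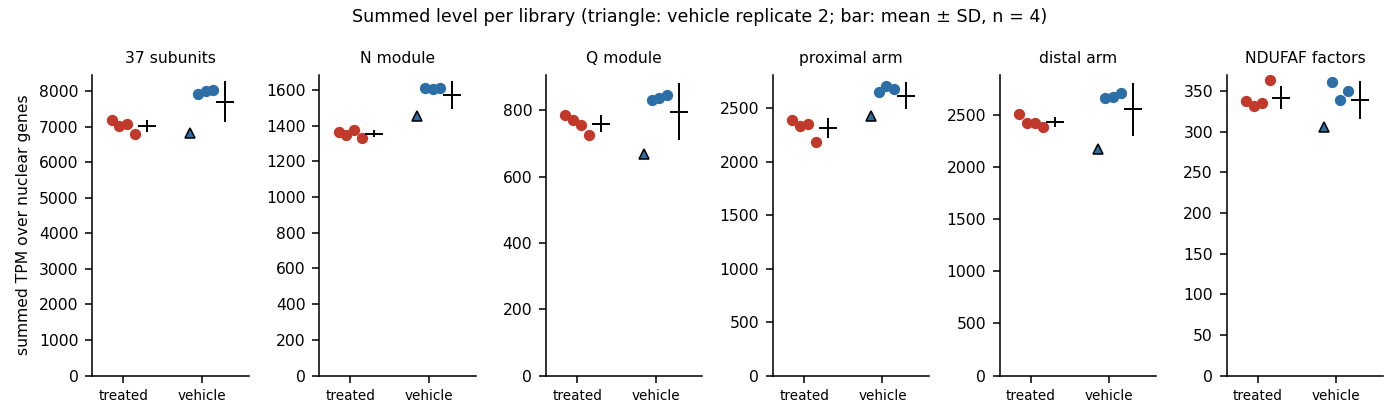
Summed TPM of each module in each library, with the nuclear genes alone scaled to the TPM total and without TMM factors. Triangles are vehicle replicate 2 and bars the mean ± SD of 4 libraries. The 37 subunits sum to 6803 to 7196 in treated neurons, against 6831 in vehicle replicate 2 and 7926 to 8036 in the other vehicle neurons, and the NDUFAF factors overlap.

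Transcript usage, the division of a gene's reads among its annotated transcripts, was tested for 43 of the 48 genes, over those transcripts that GENCODE 29 also holds. These made up 97.0% to 97.3% of the summed TPM of the 48 genes in every library. NDUFA10 and NDUFB10 were called, that is 2 of 43, against 8.61% of the 11746 genes tested (diffSpliceDGE of edgeR, Simes p, adjusted). The diffSplice test of limma called 15 of the 43, against 28.8% of all genes, NDUFA10 and NDUFB10 among them. The division of reads among transcripts was estimated upstream and its error is not part of either test.

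NDUFA10, a proximal arm subunit related to nucleoside kinases, lies on chromosome 2 (239892450 to 240025402 on GRCh38, minus strand). Its gene level stood at 94.6 to 97.9 CPM in treated neurons, against 100.7 to 105.4 CPM in vehicle neurons. The groups did not overlap and yet the gene was not called (-0.08, adjusted p = 0.194), except with library totals only (-0.18, adjusted p = 0.0151). The transcript NDUFA10-212, annotated as retaining an intron, took a larger share. In treated neurons it made up 29.7%, 31.0%, 32.9% and 31.0% of the summed TPM of the 14 NDUFA10 transcripts in GENCODE 29, against 13.1%, 14.0%, 13.4% and 13.6% in vehicle neurons. Those transcripts held 79.1% to 81.6% of the gene's TPM in treated neurons, against 83.2% to 85.5% in vehicle neurons, and of the whole gene NDUFA10-212 made up 25.0% ± 0.908 in treated neurons, against 11.4% ± 0.276 in vehicle neurons (SD, n = 4 each). In level it stood at 15.3, 16.2, 16.8 and 15.8 TPM in treated neurons, against 7.34, 8.78, 8.48 and 8.61 TPM in vehicle neurons. The groups were far apart, and vehicle replicate 2 lay close to its own group. The usage of NDUFA10-212 relative to the gene was higher by 1.12 on the log2 scale (diffSpliceDGE, adjusted p = 0.00583), and by 1.495 with limma's diffSplice. The coding transcript NDUFA10-201 made up 23.8% ± 0.691 of the transcripts in GENCODE 29 in treated neurons, against 35.4% ± 2.10 in vehicle neurons (SD, n = 4 each). By diffSpliceDGE its own change was not called (-0.65, adjusted p = 0.228), and by limma it was. The call on the gene had an adjusted p of 0.00833, was lost without treated replicate 3 (adjusted p = 0.0652) or 4 (adjusted p = 0.0788), and was 3.69e-08 without vehicle replicate 2.

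In the GENCODE 29 models NDUFA10-212 keeps the fifth intron of NDUFA10-201, of 3042 bases (chr2:240011697-240014738). The ends of that intron are shown with 12 bases of exon and 12 of intron each, as GENCODE 29 gives them in the transcript, with intron bases in capitals.
5′ splice site (chr2:240014727-240014750, minus strand): aagaaaggagatGTAATGCAGTTT
3′ splice site (chr2:240011685-240011708, minus strand): GCTTCTGTTTAGccacatgaaatg
The intron opens with GT and closes with AG, the usual letters of a splice donor and acceptor.

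**Figure D5:**
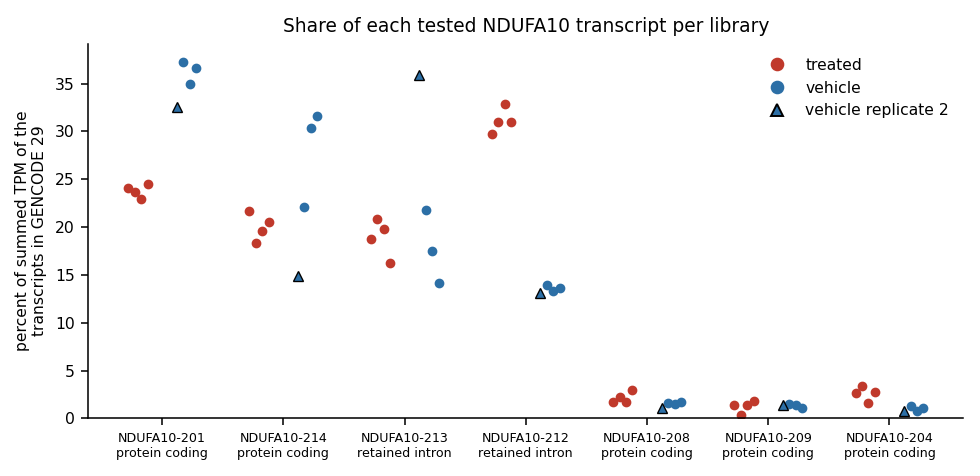
Share of each tested NDUFA10 transcript in the summed TPM of the NDUFA10 transcripts that GENCODE 29 holds, per library; red points are treated, blue points vehicle, triangles vehicle replicate 2. The retained-intron transcript NDUFA10-212 lies at 29.7% to 32.9% in treated neurons, against 13.1% to 14.0% in vehicle neurons, and NDUFA10-201 is lower in treated neurons.

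NDUFB10, a disulfide-held distal arm subunit on chromosome 16, was called through the transcript NDUFB10-205. It made up 0.247% to 2.08% of the gene's TPM in treated neurons, against 58.8% in vehicle replicate 2 and 1.18% to 5.84% in the other vehicle neurons. Without that library the gene's adjusted p was 0.043, against 0.000245 with it, and the transcript then called was NDUFB10-202 (20.1% to 23.2% in treated neurons, against 11.9% to 12.5% in the 3 vehicle neurons, adjusted p = 0.0331). Over the 48 genes together, transcripts annotated for nonsense-mediated decay, a pathway that degrades transcripts with an early stop, made up 2.52% to 2.70% of the TPM of transcripts in GENCODE 29 in treated neurons, against 2.09% to 2.30% in vehicle neurons. Over all nuclear coding genes that share was 3.13% to 3.19% in treated neurons, against 3.65% in vehicle replicate 2 and 2.70% to 2.78% in the other vehicle neurons. This summary was chosen after the values were seen and was not tested.

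The mitochondrial genome encodes 7 core subunits of the membrane arm. Of these, 5 fell and none rose, against 30.2% lower and 27.7% higher among all genes. MT-ND6, whose gene lies on the other strand from the rest, stood at 17.2 ± 2.37 CPM in treated neurons, against 90.2 ± 42.1 CPM in vehicle neurons (SD, n = 4 each). Its log2 fold change was -2.39 ± 0.272 (SE, edgeR quasi-likelihood test, adjusted p = 3.95e-05) and -2.02 without vehicle replicate 2. Whether the counting used strand is unknown here, so reads from the opposite strand of MT-ND6 were not told apart. The others fell by 1.56 (MT-ND1), 1.58 (MT-ND3), 1.77 (MT-ND2) and 1.77 (MT-ND5) on the log2 scale, and by 0.84, 0.93, 1.06 and 0.99 without vehicle replicate 2, in which mtDNA transcripts were high. MT-ND4 and MT-ND4L were not called (-0.86 and -0.94, and -0.14 and -0.05 without that library). The median of the 7 was -1.58, against -0.05 for the 37 nuclear subunits, and -0.93 against -0.07 without vehicle replicate 2. All mtDNA genes together summed to 103029 to 137952 TPM in treated neurons. They summed to 302005 TPM in vehicle replicate 2 and to 103214 to 130303 TPM in the other vehicle neurons.

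Of 12 assembly factors without an NDUF name, 2 were higher, 5 lower and 5 not called, against 27.7% higher and 30.2% lower of all genes. The median was -0.22. ECSIT, a partner of NDUFAF1, was higher at 33.3 ± 3.51 CPM in treated neurons, against 18.9 ± 2.51 CPM in vehicle neurons (SD, n = 4 each), by 0.82 on the log2 scale (edgeR quasi-likelihood test, adjusted p = 0.000148). TMEM126A was also higher (0.54). ACAD9, also of the NDUFAF1 complex, was lower (-0.35). TMEM126B, of the same complex, was not called (-0.16, adjusted p = 0.161) but was lower without vehicle replicate 2 (-0.22, adjusted p = 0.0455). TMEM186 and COA1 were not called either (-0.27 and 0.04), and TMEM186 was lower without vehicle replicate 2 (-0.41). NUBPL, which delivers iron-sulfur clusters to complex I, was lower at 6.77 ± 0.547 CPM in treated neurons, against 12.04 ± 0.970 CPM in vehicle neurons (-0.83, adjusted p = 2.93e-05). DMAC1 (-0.48), TIMMDC1 (-0.46) and TMEM70 (-0.38), which serve the membrane arm, fell as well. Without vehicle replicate 2 the count of the list was 2 higher and 8 lower.

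Of 12 genes for making and delivering iron-sulfur clusters, 4 were higher and 6 lower, against 27.7% and 30.2% of all genes. The median was -0.10, and the counts were 4 and 6 without vehicle replicate 2 as well. The higher ones were FDX2 (0.54), LYRM4 (0.37), ISCU (0.34) and GLRX5 (0.27). The lower ones included BOLA3 (-0.69), ISCA1 (-0.51), the cysteine desulfurase NFS1 (-0.46), ISCA2 (-0.42) and NFU1 (-0.30). Without vehicle replicate 2 FDX2 stood at 0.41 and NFU1 at -0.16, both still called. With gene length modelled the scaffold gene ISCU stood at 0.16 and was no longer called. IBA57 and the chaperone HSCB were not called (0.10 and 0.24).

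Of 10 genes by which electrons can reach coenzyme Q beside complex I, 5 were higher and 3 lower, against 27.7% and 30.2% of all genes. The median was 0.15, and the counts were 5 and 4 without vehicle replicate 2. SQOR, which oxidises hydrogen sulfide, was higher at 1.06 ± 0.206 CPM in treated neurons, against 0.196 ± 0.0619 CPM in vehicle neurons (SD, n = 4 each), by 2.42 on the log2 scale (edgeR quasi-likelihood test, adjusted p = 1.66e-05). The choline dehydrogenase CHDH was higher by 1.69, from a low level too (0.685 ± 0.0623 CPM in treated and 0.211 ± 0.0408 CPM in vehicle neurons). ETFDH, the entry for electrons from fatty acid oxidation, was higher by 0.57. The glycerol phosphate dehydrogenase GPD2 was lower by 0.72. The pyrimidine enzyme DHODH was lower by 0.45 in reads, but with gene length modelled its log2 fold change was 0.18 and not called, and its mean level was 3.49 TPM in treated and 3.17 TPM in vehicle neurons. Of complex II, SDHA was lower (-0.49), SDHB and SDHD were higher (0.22 and 0.51), and SDHC was not called (-0.05). Among the proteases known to remove N module subunits, LONP1 was higher by 0.52 (adjusted p = 0.00329), and CLPP and CLPX were not called (-0.17 and 0.05).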

How the data were processed

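RNA of 4 treated and 4 vehicle libraries of LUHMES-derived neurons was sequenced after an mRNA library preparation. Per the file headers, the deposited files give for each gene and transcript an estimated count of reads and a TPM. HISAT2, SAMtools, StringTie and hg38 are named in the submitters' processing notes, and no source used here names the estimator, the annotation release or whether the counting used strand. The authors' deposited table gives log2 fold changes with a p-value and FDR for coding genes, and its 8 per-library columns were not used. The series text speaks of 4 technical replicates per batch, and each deposited file was taken as 1 library.

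Estimated counts were rounded, filtered with filterByExpr, scaled by TMM and tested with edgeR 4.0.16 (quasi-likelihood, R 4.3.3) on the 8 libraries with no covariate. P-values were adjusted by Benjamini-Hochberg over all genes tested, and calls were made at 0.05. Transcript usage was tested with diffSpliceDGE on transcripts with at least 10 reads in 4 libraries. Alternatives were DESeq2 1.42.0, limma 3.58.1 (voom), other scalings and filters, a length offset, a replicate block and each library left out. The tests were checked on simulated data, where the gene test missed most of the smallest changes and diffSpliceDGE made more false calls than its threshold allows, and more than limma's diffSplice. The simulated transcripts were all given the same variability between libraries, and no library stood apart. The simulation therefore cannot show which usage test errs less on these data. Depth was 93717712 to 110020746 estimated reads, and no library pair agreed within sampling noise. Gene types and positions were matched by identifier to GENCODE 29, and promoters came from RefSeq. Members and lists were chosen with earlier results of these data known. The genes named were all called members, the nuclear core subunits, NDUFA4, NDUFAB1, the NDUFAF factors, the highest and lowest subunit and members with changed transcript usage. Other members named were chosen after their values were seen. Single results of 1 member and 1 listed gene are not reported here, though both enter the counts and sums.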

Additional observations from a re-analysis of the deposited data

Results flagged for a closer look

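In each group of 4 libraries, a library was listed where its gap to the nearest other, as a share of the group's range, exceeded Dixon's 95% critical value. Chance gives about 1 in 20 groups, and 19 of 96 groups of the 48 genes were listed. Of these, 17 were vehicle replicate 2, the library in which mtDNA genes made up 30.2% of TPM. No share over all genes stands beside this count, and the 48 genes share the same libraries. The count therefore cannot single out complex I genes.

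That library was low for most of those described here. The core subunits NDUFV1, NDUFS3 and NDUFS7 stood at 66.6, 30.05 and 19.6 CPM. The distal arm subunits NDUFB2, NDUFB6, NDUFB8 and NDUFB11 stood at 18.6, 13.5, 55.4 and 41.2 CPM. NDUFA4 stood at 64.0 CPM, NDUFAF8 at 4.65 CPM and NDUFC2-KCTD14 at 0.287 CPM. It was high for NDUFA5 (130.3 CPM), NDUFA12 (50.2 CPM), NDUFAF2 (12.6 CPM), NDUFB1 (16.9 CPM), NDUFB10 (78.5 CPM) and NDUFS6 (44.1 CPM). The 37 subunits summed in it to 6831 TPM with the nuclear genes alone scaled to the TPM total, against 7926 to 8036 in the other vehicle libraries.

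Treated replicate 5 was the library that stood apart in the other 2 groups, with NDUFA3 at 16.4 CPM and NDUFS7 at 33.7 CPM, both low. No cause was tested for either library.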

How the results depend on the processing

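Of the 17 called genes, 11 were called in the same direction under all 16 alternatives of the gene test (NDUFA4L2, NDUFAF4, NDUFAF7, NDUFC2-KCTD14 and NDUFS4 higher, NDUFA12, NDUFAF6, NDUFB3, NDUFS1, NDUFV2 and NDUFV3 lower), and 6 were lost under at least 1 (NDUFA8, NDUFA9, NDUFAF1, NDUFAF5, NDUFB9 and NDUFS7). None of the 17 changed direction, while uncalled values changed sign 26 times. The number of genes higher was 5 with library totals only, and the number lower was then 12. With DESeq2 these numbers were 11 and 8. On leaving out 1 library in turn, 6 to 10 genes were higher and 7 to 14 lower, the highest counts being those without vehicle replicate 2. Shares of all genes are given above only for library totals and for the fit without vehicle replicate 2. The other counts of this paragraph show only how far the calls move. Genes called in transcript usage numbered 2 of 43, against 8.61% of all genes tested. Limma's diffSplice, an alternative chosen after seeing the data, called 15, against 28.8% of all genes. The gene-wise F-test called 12, with no share of all genes to set beside it. On leaving out 1 library in turn, 1 to 6 were called (6 without vehicle replicate 2, 1 without treated replicate 3 or 4). The cause of these differences was not tested. Libraries of the same replicate number did not deviate together from their group means (correlations of deviations -0.08 to 0.03). The vehicle means include vehicle replicate 2, which stood apart, so this cannot show that the batches were unpaired. With the replicate block 6 genes were higher (NDUFAF5 and NDUFS7 were lost), 9 lower and 2 called in usage. Depth limits NDUFA4L2 and NDUFC2-KCTD14 most, with 85 to 176 and 26.2 to 172.8 estimated reads per library.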
